A study of Homo sapiens with 6 samples.

Results

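Transcripts of 10 Notch pathway genes were examined in U87-MG cells: the receptors NOTCH1, NOTCH2 and NOTCH3, the ligands JAG1, JAG2 and DLL4, and the target genes HES1, HES4, HEY1 and HEY2. The genes were taken by name from a deposited table of 61731 genes and loci, and all 10 were found by their Ensembl identifiers. U87-MG, a long-established line, came from a human glioblastoma. Total RNA was sequenced from 3 libraries of U87 cells with the genotype given as CHRM knockdown (KD) and 3 with the genotype given as normal control (NC). Per the study's methods, knockdown was by lentivirus against CHRM3, the M3 muscarinic acetylcholine receptor, with several sequences (KD1, KD2 and KD3), and the sequence carried by the sequenced cells is not given in the sources used here. Treatment, time in culture and whether replicates were separate cultures are not given either, so p-values measure only the spread between these libraries, which may be technical.

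Values are TPM, the share of the transcripts of a library that belongs to a gene, after correction for length and on a fixed total, so levels can be compared between genes. Read depth cannot be recovered from TPM, so it is unknown and no counting error is given. Between 13518 and 13664 genes reached 1 TPM per library. The targeted gene CHRM3 was 0.02, 0.09 and 0.13 TPM in NC replicates 1, 2 and 3, and 0.13, 0.01 and 0.02 TPM in the libraries labelled KD replicates 1, 2 and 3, the order in which values are given throughout. These values overlapped (exact two-sided permutation p = 0.80, where 0.10 is the smallest possible), so a knockdown was not detectable at these TPM levels, and the groups below follow the labels. Of 6 glioma and astroglial markers, 4 reached a mean of 1 TPM, and their sum was between 7108 and 7287 TPM in NC and between 7729 and 7920 TPM in KD, nearly all of it VIM and CD44. The markers in this sum went in different directions. Mean VIM was 6574 TPM in NC and 7376 TPM in KD, and mean NES 2.25 and 3.58 TPM. Mean CD44 was lower in KD, at 473.5 TPM against 597.3 TPM in NC. GFAP was between 0.87 and 1.46 TPM, and SOX2 did not exceed 0.09 TPM. In bulk RNA, fewer cells with a transcript and less transcript per cell cannot be told apart.

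Notch receptors are transmembrane proteins that are activated by ligands of the Jagged and Delta-like families on a neighbouring cell. Ligand binding exposes the receptor to cleavage by ADAM proteases and then by gamma-secretase, and the released intracellular domain enters the nucleus, where it binds the DNA-binding protein RBPJ and coactivators of the Mastermind family. HES and HEY genes, which encode transcriptional repressors, are classic targets of this complex. In the brain the pathway is known for keeping neural stem cells undifferentiated, and it has been studied in glioma stem-like cells.

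NOTCH2 was by far the most abundant of the 10 genes, with a mean of 49.2 TPM over the 6 libraries. JAG1 (4.99 TPM), NOTCH1 (4.2 TPM) and HES1 (3.29 TPM) followed, then HEY1 (1.72 TPM) and NOTCH3 (1.38 TPM). HEY2 (0.72 TPM), HES4 (0.52 TPM), JAG2 (0.0933 TPM) and DLL4 (0.0167 TPM) were below 1 TPM on average. Ranges over the 6 libraries, with NC and KD pooled, overlapped between some neighbours in this order. The pairs were JAG1 and NOTCH1, NOTCH1 and HES1, HEY1 and NOTCH3, HEY2 and HES4, and JAG2 and DLL4. Pooled ranges include the difference between the groups. NOTCH1 was above JAG1 in every NC library and below it in every KD library. NOTCH1 was also above HES1 in every NC library, and JAG2 above DLL4 in every KD library. Compared within each library, HEY1 was above NOTCH3 in NC and HEY2 above HES4 in KD, although the ranges of those groups overlapped.

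**Figure D1:**
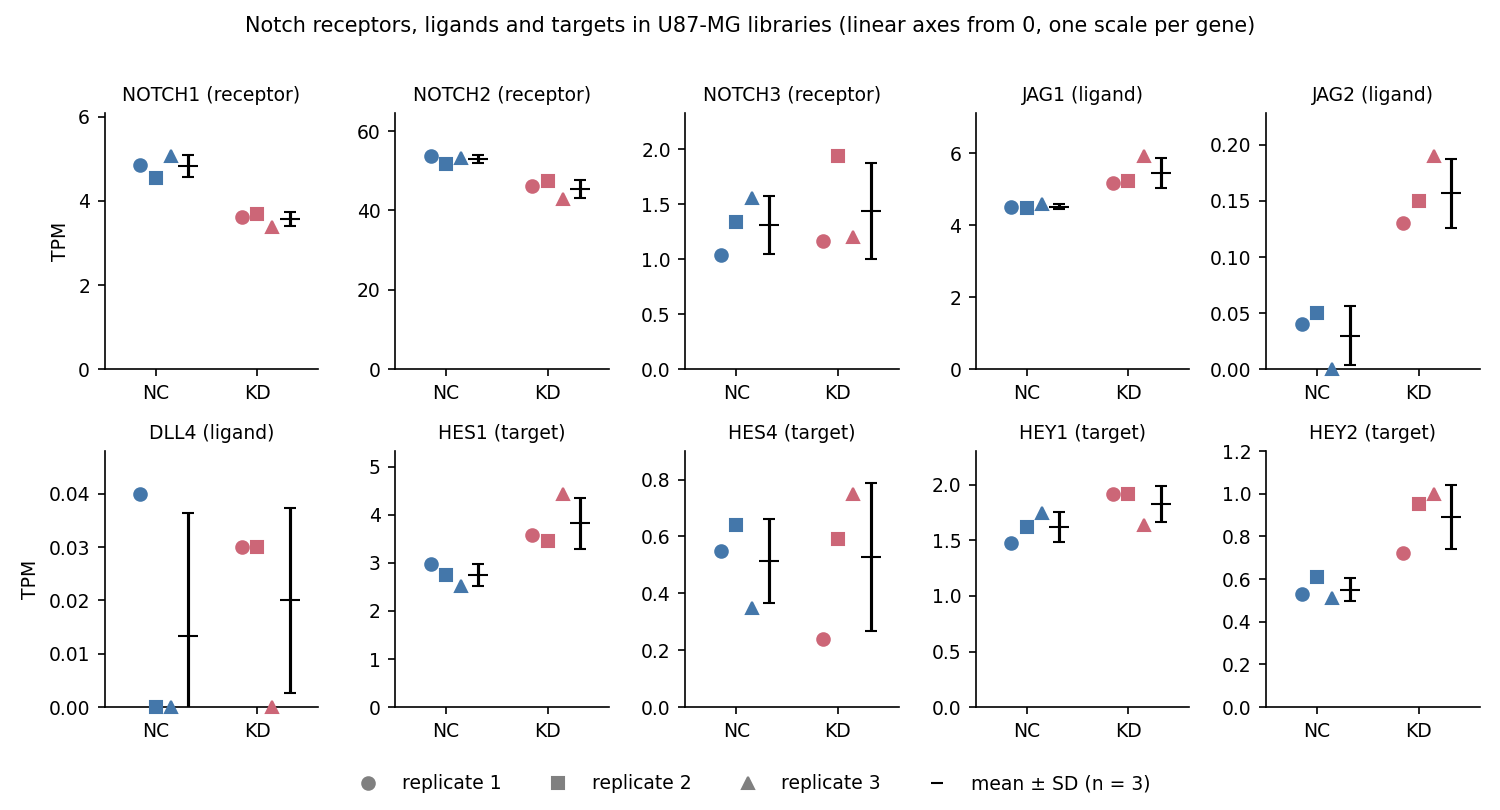
TPM of each of the 10 Notch genes in each library, on linear axes that start at 0 with a scale of its own per gene. Points are libraries (circle, square and triangle for replicates 1, 2 and 3), and black marks are the mean ± SD of the 3 NC or 3 KD libraries. NOTCH1 and NOTCH2 lay lower in KD than in NC with no overlap, JAG1, JAG2, HES1 and HEY2 lay higher with no overlap, and the other 4 genes overlapped.

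Differences between KD and NC were tested with limma on log2(TPM + 1) over the 13722 genes that averaged 1 TPM or more, with Benjamini-Hochberg adjustment, and a gene was called at an adjusted p under 0.05. The pseudocount of 1 TPM makes the log2 fold change smaller than the change in TPM for low genes. Of the 10 Notch genes, 6 were tested, and 4 (JAG2, DLL4, HES4 and HEY2) fell below the limit and are described by their values. NOTCH1 and NOTCH2 were lower, HES1 was higher, and NOTCH3, JAG1 and HEY1 did not pass. Over all tested genes 36.1% were called, 24.0% lower and 12.1% higher, so calls were common and a count of 3 of 6 is to be read against that background. With median-of-ratios scaling, which moved the median log2 fold change of all tested genes from -0.06 to 0.00162, the calls over all genes changed from 3295 lower and 1660 higher to 2257 lower and 2292 higher, and those of the Notch genes to 2 lower (NOTCH1 and NOTCH2) and 2 higher (JAG1 and HES1). None of the 6 differed by 1 log2 unit or more, as did 1.87% of all tested genes among those called. The 3 KD values lay entirely above or below the 3 NC values for 6 of the 10 genes, 2 lower and 4 higher, and for 50.2% of all tested genes (32.8% lower and 17.4% higher). Among the 6 tested Notch genes alone, which is the set to compare with that share, it was 4 (2 lower and 2 higher).

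Among the receptors, NOTCH2 (ENSG00000134250) lies on the minus strand of chromosome 1 from 119911553 to 120069626 (GRCh38). It was 53.74, 51.75 and 53.35 TPM in NC and 46.07, 47.37 and 42.96 TPM in KD. Every KD library was below every NC library, and KD replicate 3 was the lowest. Mean NOTCH2 fell by 14.1%, from 52.95 ± 1.06 to 45.47 ± 2.27 TPM (SD, n = 3 per group), or by -0.22 ± 0.0428 on the log2 scale (estimate ± SE, limma adjusted p = 0.00937). The genome holds near-identical partial copies of NOTCH2 that arose by duplication in the human lineage, NOTCH2NLA, NOTCH2NLB, NOTCH2NLC and NOTCH2NLR, and estimated counts can be split differently between them. Summed over NOTCH2 and these 4 copies, a value chosen after the data were seen, the level was between 91.01 and 91.92 TPM in NC and between 73.1 and 75.19 TPM in KD. The sum was lower in KD as well, by -0.30 on the log2 scale (limma adjusted p = 0.000233), and it includes the falls of the copies, so it does not fix the change of NOTCH2 by itself.

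NOTCH1 (ENSG00000148400), on the minus strand of chromosome 9 from 136494433 to 136545786, showed the same direction. It was 4.86, 4.55 and 5.07 TPM in NC and 3.61, 3.70 and 3.39 TPM in KD, with no overlap between the groups. Mean NOTCH1 fell by 26.1%, from 4.83 ± 0.262 to 3.57 ± 0.160 TPM (SD, n = 3 per group), or by -0.35 ± 0.0748 on the log2 scale (estimate ± SE, limma adjusted p = 0.0124).

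NOTCH3 (ENSG00000074181), on the minus strand of chromosome 19 from 15159038 to 15200981, was 1.04, 1.34 and 1.56 TPM in NC and 1.17, 1.94 and 1.2 TPM in KD. The groups overlapped, and KD replicate 2 was the highest value. The log2 fold change of NOTCH3 was 0.07 with a 95% interval from -0.35 to 0.49 (limma adjusted p = 0.801), which spans falls and rises. The remaining receptor of the family, NOTCH4, was 1.05, 0.98 and 1.05 TPM in NC and 0.44, 0.78 and 0.72 TPM in KD. These groups did not overlap, but the mean of NOTCH4 was below 1 TPM, and in a fit without a limit on low values its log2 fold change was -0.31 (limma adjusted p = 0.195).

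Because TPM is per length, the receptors can be summed within a library. NOTCH2 took 89.6 ± 0.599% of the summed TPM of NOTCH1, NOTCH2 and NOTCH3 in NC and 90.1 ± 0.655% in KD (SD, n = 3 per group, exact two-sided permutation p = 0.40). The share of NOTCH1 was 8.17 ± 0.280% in NC and 7.07 ± 0.0791% in KD, with no overlap, which gave the smallest p that 3 libraries against 3 allow (exact two-sided permutation p = 0.10). NOTCH3 took 2.22 ± 0.438% and 2.83 ± 0.729% (exact two-sided permutation p = 0.50). The receptor pool was therefore mostly NOTCH2 in every library of both groups.

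Among the ligands, JAG1 (ENSG00000101384) lies on the minus strand of chromosome 20 from 10637684 to 10673999. It was 4.51, 4.47 and 4.59 TPM in NC and 5.19, 5.24 and 5.93 TPM in KD. All 3 KD values were above the NC values. Mean JAG1 was 4.52 ± 0.0611 TPM in NC and 5.45 ± 0.414 TPM in KD (SD, n = 3 per group), a log2 fold change of 0.22 with a 95% interval from 0.05 to 0.40. It missed the threshold narrowly (limma adjusted p = 0.0547). JAG1 passed in 3 of 15 refits, with median-of-ratios scaling (0.0284), quantile normalization (0.0290) or a limma fit without the mean-variance trend (0.0286). It did not pass whichever library was left out (limma adjusted p between 0.076 and 0.141). With lower limits on low values it did not pass either (0.0901 at 0.1 TPM and 0.135 with none).

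JAG2 (ENSG00000184916), on chromosome 14 from 105140981 to 105168824, was 0.04, 0.05 and 0 TPM in NC and 0.13, 0.15 and 0.19 TPM in KD. The groups did not overlap, but all values lay within 0.19 TPM of 0 in a table rounded to 2 decimals. When low genes were tested too, JAG2 was higher by 0.17 ± 0.0358 on the log2 scale (estimate ± SE, limma adjusted p = 0.0330). DLL4 (ENSG00000128917), on chromosome 15 from 40929333 to 40939073, is a ligand best known from endothelial cells. It was listed at 0 TPM in 3 of the 6 libraries and did not exceed 0.04 TPM.

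The other Delta-like ligands were also below 1 TPM, since DLL1 did not exceed 0.16 TPM and DLL3 was above 0 only in NC replicate 3 (0.44 TPM) and KD replicate 2 (0.10 TPM). JAG1 thus made up 99.0 ± 0.882% of the summed TPM of JAG1, JAG2 and DLL4 in NC and 96.9 ± 0.168% in KD (SD, n = 3 per group, exact two-sided permutation p = 0.10, the smallest possible). That difference of -2.19 percentage points was 1.68 with DLL1 and DLL3 in the sum, so its direction depended on transcripts near 0.

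Markers of endothelial cells, mural cells and leukocytes were examined beside these values. Of the 6 endothelial markers, 1 (KDR) reached a mean of 1 TPM, CLDN5 was listed at 0 in all libraries, and PECAM1 and CDH5 did not exceed 0.07 TPM. The summed level of that list was between 3.43 and 3.62 TPM in NC and between 1.53 and 1.59 TPM in KD, nearly all of it KDR. All 5 mural cell markers reached 1 TPM, and their sum was between 109.9 and 116.6 TPM in NC and between 215.0 and 225.0 TPM in KD, most of it ACTA2, with 2 called higher (ACTA2 and PDGFRB) and 1 lower (CSPG4). None of the 6 leukocyte markers reached 1 TPM, and their sum did not exceed 0.84 TPM. The part of these marker levels in the Notch results was not tested.

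Of the targets, HES1 (ENSG00000114315) encodes a basic helix-loop-helix repressor and spans bases 194136145 to 194138732 of chromosome 3 (plus strand). The sequence before its start is shown because it carries the letters TGGGAA, the core of the motif bound by RBPJ, and the other targets with a promoter entry are shown with it to compare the flanks. Promoter sequences are from RefSeq (GRCh38.p14), which held 9 of the 10 genes, all except HEY1. Capitals mark TGGGAA or its reverse complement TTCCCA, and each sequence reads 5′ to 3′ along the gene. For HES1 the run covers chr3:194135898-194136144 on the plus strand, upstream of the annotated exons. For HES4 it covers chr1:1000156-1000185 on the minus strand, of which 17 bases lie in an exon of some annotated transcripts, and for HEY2 chr6:125749407-125749436 on the plus strand, inside the annotated span of the gene but in no annotated exon.
HES1: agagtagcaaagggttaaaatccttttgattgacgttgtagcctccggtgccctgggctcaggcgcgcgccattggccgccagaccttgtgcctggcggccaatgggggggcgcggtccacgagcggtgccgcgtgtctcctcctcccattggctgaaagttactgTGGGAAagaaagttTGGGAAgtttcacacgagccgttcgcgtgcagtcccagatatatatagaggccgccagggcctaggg
HES4: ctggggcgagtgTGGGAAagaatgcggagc
HEY2: tccgcggccgcgTTCCCAcgcctcggctgg

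In the 250 bases before the RefSeq start, HES1 held TGGGAA at 84 and 70 bases before the start, HES4 held it at 76 bases, and HEY2 held it on the opposite strand at 213 bases. No receptor or ligand promoter held these letters in this window. For NOTCH1 and NOTCH2 the RefSeq start was not matched to a GENCODE 29 transcript. Their windows lie upstream of the gene spans given above, so bases just before those spans were not all searched. On either strand, 20.8% of the 35116 RefSeq promoters held TGGGAA at least once and 2.9% at least 2 times. The N-box CACNAG, bound by HES proteins, was found in HES1 (3 matches, at 165, 132 and 58 bases before the start) and NOTCH3 (1 match, at 211 bases), and in 32% of all promoters. The E-box CACGTG was in none of the 9 and in 6.34% of all promoters. These are matches of letters in a fixed window, and the libraries hold no measurement of binding.

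**Figure D2:**
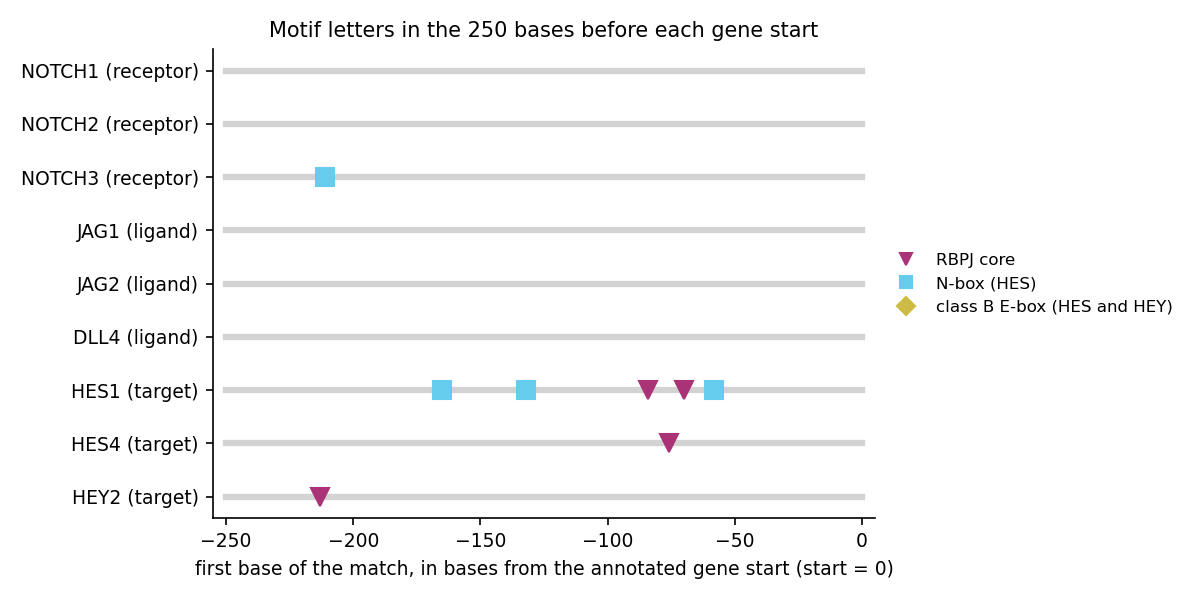
Position of motif letters in the 250 bases before the RefSeq start of the 9 Notch genes with a promoter entry. The horizontal axis is the distance of the first base of the match from the start, in bases, each grey line is the window of a gene, and symbols stand for the RBPJ core (triangle), the N-box (square) and the E-box (diamond, no match). The RBPJ core was found in HES1, at 84 and 70 bases, and in HES4 and HEY2, at 76 and 213 bases.

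HES1 was 2.97, 2.75 and 2.51 TPM in NC and 3.58, 3.46 and 4.44 TPM in KD. The groups did not overlap, and KD replicate 3 stood highest, as it did for JAG1, JAG2, HES4 and HEY2. Mean HES1 was 2.74 ± 0.230 TPM in NC and 3.83 ± 0.535 TPM in KD (SD, n = 3 per group), a rise of 39.5%, or 0.36 ± 0.110 on the log2 scale (estimate ± SE, limma adjusted p = 0.0425). This call was narrow. It was lost whichever of the 6 libraries was left out, with adjusted p between 0.0564 and 0.116 and log2 fold changes between 0.27 and 0.42, and also with lower limits on low values (0.0629 at 0.1 TPM and 0.124 with none).

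HEY1 (ENSG00000164683), on the minus strand of chromosome 8 from 79764010 to 79767863, encodes a related repressor. It was 1.48, 1.62 and 1.75 TPM in NC and 1.92, 1.92 and 1.64 TPM in KD, and KD replicate 3 lay within the NC range. Its log2 fold change was 0.11 with a 95% interval from -0.16 to 0.38 (limma adjusted p = 0.480).

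HEY2 (ENSG00000135547), at bases 125747664 to 125761269 of chromosome 6 (plus strand), was 0.53, 0.61 and 0.51 TPM in NC and 0.72, 0.95 and 1.0 TPM in KD. The groups did not overlap, and the means were 0.55 ± 0.0529 TPM in NC and 0.89 ± 0.149 TPM in KD (SD, n = 3 per group), below the limit for testing. Tested together with all low genes, HEY2 differed by 0.28 on the log2 scale and did not pass (limma adjusted p = 0.157). HES4 (ENSG00000188290), on the minus strand of chromosome 1 from 998962 to 1000172, was 0.55, 0.64 and 0.35 TPM in NC and 0.24, 0.59 and 0.75 TPM in KD. Its groups overlapped, with both the lowest and the highest value in KD.

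Of the rest of the HES and HEY families, HES6 was tested. It was 5.38, 6.82 and 7.37 TPM in NC and 6.55, 7.86 and 9.52 TPM in KD, with a log2 fold change of 0.25 that did not pass (95% interval -0.11 to 0.62, limma adjusted p = 0.247). HES7 was between 0.14 and 0.58 TPM and overlapped between groups, HES2 did not exceed 0.06 TPM, and HES5 and HEYL were listed at 0 TPM in all 6 libraries. HES5 is a target often read out in neural cells.

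Genes that overlap the members in the annotation were low. The antisense genes at NOTCH1, JAG1 and HEY2 and the small RNA and same-strand loci at JAG1, JAG2, NOTCH1 and NOTCH3 did not exceed 0.19 TPM in any library.

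**Figure D3:**
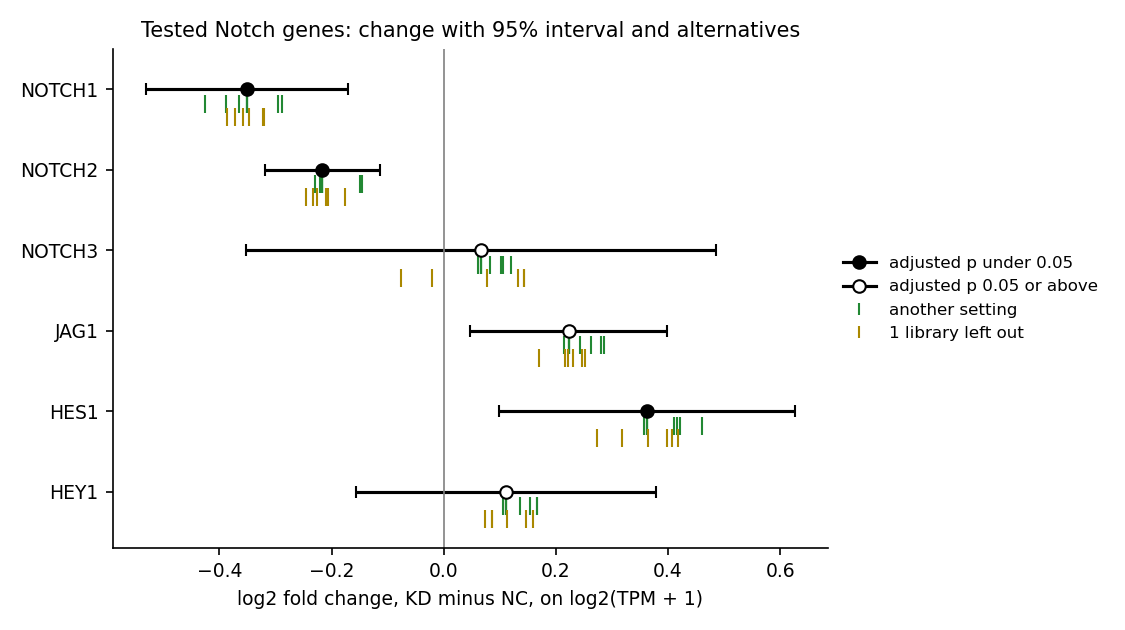
Log2 fold change (KD minus NC, on log2(TPM + 1)) of the 6 tested Notch genes, with 95% limma intervals, filled where the adjusted p was under 0.05. Green ticks are other settings and brown ticks are fits with 1 library left out. NOTCH1 and NOTCH2 stayed below 0 and JAG1, HES1 and HEY1 above 0 in every fit shown, and NOTCH3 fell on both sides of 0.

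The other genes of the pathway were taken from a list of 69 genes ordered by role, of which 51 were tested. Of these, 20 were lower, 3 were higher and 28 did not pass, with a median log2 fold change of -0.10 (-0.06 over all tested genes, of which 24.0% were lower and 12.1% higher). No gene called on the list differed by 1 log2 unit or more. Median-of-ratios scaling sets the median of all tested genes near 0. With it, 10 on the list were lower and 6 higher, and of all 13720 tested genes 2257 were lower and 2292 higher. The counts by role below are given with both scalings. Without this scaling, the numbers called on the list were 13 to 15 whichever library was left out.

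The machinery that cleaves the receptor held 9 tested genes, of which 5 were lower and none higher (3 and 0 with median-of-ratios scaling, under which the adjusted p of ADAM17 was 0.0625). ADAM17, a protease of the first cleavage, was 13.67, 11.87 and 10.33 TPM in NC and 9.57, 8.88 and 8.58 TPM in KD (log2 fold change -0.37, limma adjusted p = 0.0312). ADAM10, the other protease of this step and the more abundant, was 56.3 ± 1.03 TPM in NC and 58.5 ± 4.64 TPM in KD (SD, n = 3 per group, limma adjusted p = 0.527). Among the genes for gamma-secretase subunits, APH1A and PSENEN were lower (-0.23 and -0.20, limma adjusted p = 0.00178 and 0.00894). The call of ADAM17 was lost without NC replicate 1, NC replicate 2, KD replicate 2 or KD replicate 3, with adjusted p up to 0.0898. FURIN, which processes the receptor precursor, was also lower (-0.26, limma adjusted p = 0.0110).

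Enzymes that add sugars to the receptor's extracellular repeats moved in both directions, with 2 of 4 tested genes lower and 1 higher (1 and 1 with median-of-ratios scaling). LFNG, a Fringe enzyme that shifts receptors towards Delta-like ligands, rose from 1.97, 1.45 and 1.43 TPM in NC to 2.59, 2.73 and 3.01 TPM in KD (log2 fold change 0.53, limma adjusted p = 0.0161). Its groups did not overlap, and the call was lost narrowly without NC replicate 2, NC replicate 3 or KD replicate 3 (adjusted p up to 0.0545). POGLUT1, the O-glucosyltransferase, fell from 8.36 ± 0.533 to 6.44 ± 0.402 TPM (SD, n = 3 per group, log2 fold change -0.33, limma adjusted p = 0.0128). POFUT1, the O-fucosyltransferase, was lower by -0.09 (limma adjusted p = 0.0415), a call lost whichever library was left out and with median-of-ratios or quantile scaling. RFNG, another Fringe enzyme, did not pass.

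Among non-canonical ligands, DNER and MFAP2 were tested and both were lower, also with median-of-ratios scaling. DNER, a transmembrane protein of neurons reported to bind Notch, was more abundant than any of the 10 Notch genes. It was 87.02, 88.98 and 87.69 TPM in NC and 59.39, 60.87 and 57.79 TPM in KD, and the gap between the groups was many times the spread within them. Its mean fell by 32.5% (-0.56 ± 0.0288 on the log2 scale, estimate ± SE, limma adjusted p = 4.47e-05). MFAP2, a microfibril protein, was between 50.25 and 58.46 TPM in NC and between 41.27 and 44.55 TPM in KD (log2 fold change -0.31, limma adjusted p = 0.00928). Of the ubiquitin ligases that activate ligands, MIB1, MIB2 and NEURL1B were tested and limma called 0, with 0 at an unadjusted p under 0.05.

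Of the 7 tested genes of receptor endocytosis and turnover, 3 (DTX3, NUMBL and NUMB) were lower. With median-of-ratios scaling 1 (DTX3) was lower and 1 (ITCH, a ubiquitin ligase, limma adjusted p = 0.0490) higher, and NUMBL (0.159) and NUMB (0.314) did not pass. NUMB and ITCH were named after their values were seen. DTX3, of the Deltex family, fell from 20.6 ± 1.79 to 15.9 ± 0.707 TPM (SD, n = 3 per group, log2 fold change -0.36, limma adjusted p = 0.00872). NUMBL, of the Numb family of Notch antagonists, was lower by -0.19 (limma adjusted p = 0.0495), a call lost without any library other than NC replicate 2 (adjusted p up to 0.128).

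Of the 8 tested genes of the nuclear complex, limma called 0. An unadjusted p under 0.05 was found for 4 of them (RBPJ and MAML1, higher, and SNW1 and KAT2A, lower). Over all 13722 tested genes, 6335 had such a p, so 4 of 8 is to be read against that background. RBPJ, the DNA-binding component of the complex, was 24.01, 23.76 and 26.07 TPM in NC and 27.73, 28.09 and 26.42 TPM in KD. The groups did not overlap, but the log2 fold change of 0.15 did not pass (95% interval 0.03 to 0.27, limma adjusted p = 0.0537). RBPJ passed with median-of-ratios scaling (0.22, limma adjusted p = 0.0139) and without NC replicate 3 (0.19, limma adjusted p = 0.0300). It passed in no other fit with 1 library left out, nor in the fit without a limit on low values (limma adjusted p = 0.102). MAML1, a Mastermind coactivator, also passed with median-of-ratios scaling (0.20, limma adjusted p = 0.0300). These 4 genes were singled out after their values were seen. Of the 11 tested corepressors, 4 were lower and 1 higher (1 and 1 with median-of-ratios scaling, under which the adjusted p of SIN3A was 0.0603). SIN3A was lower by -0.27 (limma adjusted p = 0.0264), a call lost without any library other than KD replicate 2, and CTBP1 was higher by 0.11 (limma adjusted p = 0.0268), a call lost without any library other than KD replicate 3.

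Of the other genes described as Notch targets, CCND1 and MYC moved in opposite directions, with either scaling. CCND1, which encodes cyclin D1 and answers to many growth signals, was 311.5, 309.6 and 311.9 TPM in NC and 215.7, 216.7 and 211.8 TPM in KD. It fell by 30.9%, with no overlap (-0.53 ± 0.0179 on the log2 scale, estimate ± SE, limma adjusted p = 8.18e-06). MYC was between 54.89 and 60.36 TPM in NC and between 63.03 and 66.28 TPM in KD (log2 fold change 0.15, limma adjusted p = 0.0411), a call lost whichever library was left out (adjusted p up to 0.113). NRARP, a direct feedback target, was listed at 0 TPM in all 6 libraries.

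Of the 4 NOTCH2 copies, 3 were lower (1, NOTCH2NLA, with median-of-ratios scaling). NOTCH2NLA, which encodes a short Notch-like protein, was 27.56, 30.81 and 27.31 TPM in NC and 18.95, 19.69 and 22.17 TPM in KD (log2 fold change -0.48, limma adjusted p = 0.00346). NOTCH2NLC was lower by -0.31 (limma adjusted p = 0.0371), a call lost whichever library was left out, and NOTCH2NLR was 2.27 ± 0.297 TPM in NC and 2.28 ± 0.191 TPM in KD (SD, n = 3 per group). These values are uncertain to the extent that reads of the copies and of NOTCH2 cannot be assigned.

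**Figure D4:**
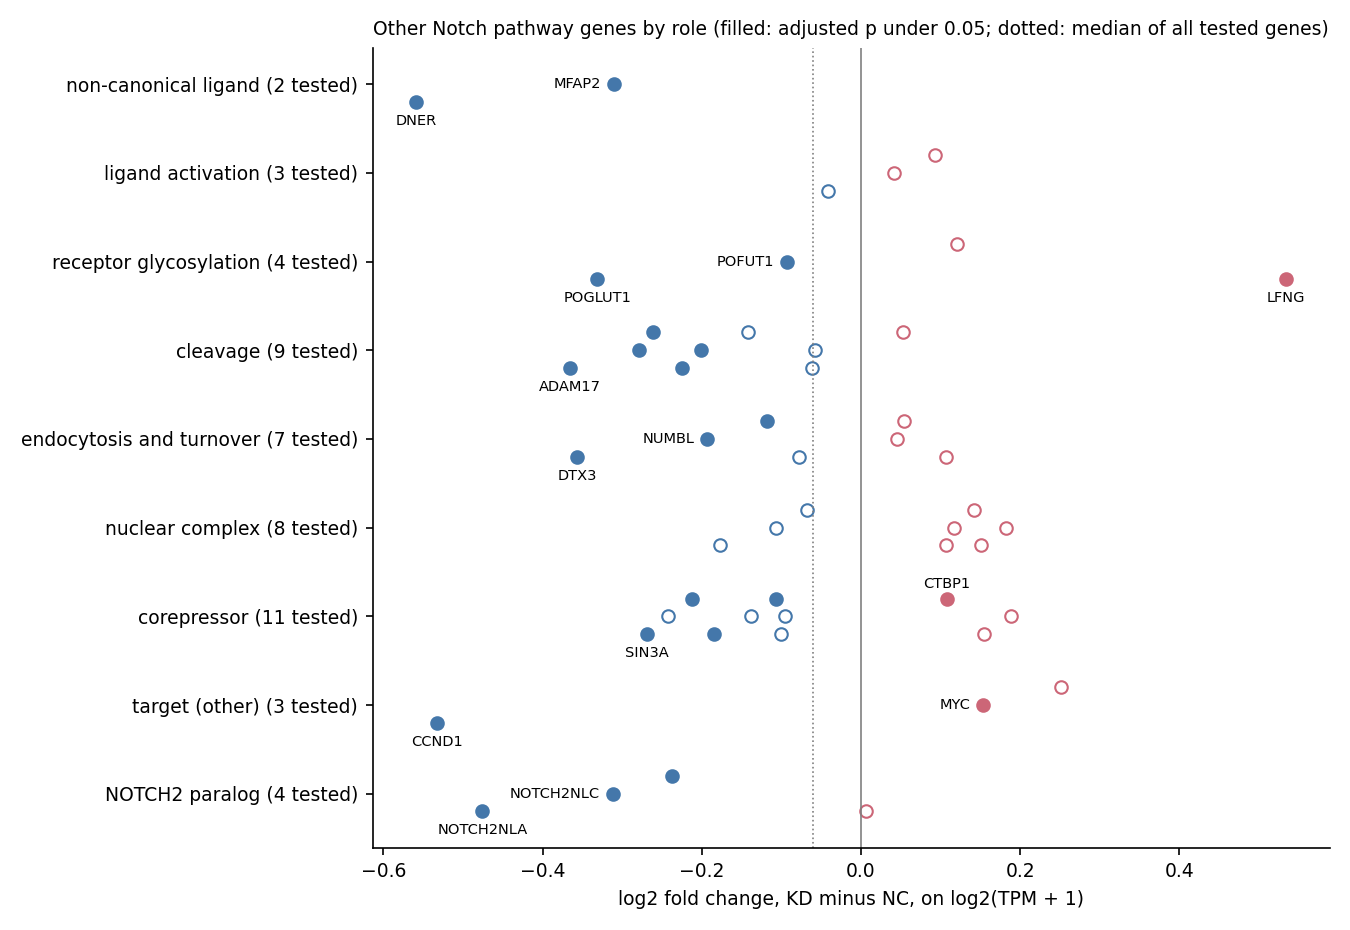
Log2 fold change (KD minus NC, on log2(TPM + 1)) of the 51 tested genes of the pathway list, in rows by role. Blue points are below 0 and red points above it, filled points have an adjusted p under 0.05, and the dotted line is the median of all tested genes (-0.06). Filled points lie mostly to the left, with 20 lower and 3 higher (LFNG, CTBP1 and MYC), and the row of the nuclear complex has no filled point.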

How the data were processed

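The authors deposited TPM per gene and library, rounded to 2 decimals, in 1 table. The submitters' processing notes name fastp, RSEM and GRCh38.p13 without roles or versions, and the aligner, annotation and strand setting are not given in the sources used here. All 6 value columns matched a sample title and 0 were left over. Of 61541 Ensembl identifiers, 61369 had a symbol. Gene coordinates are from GENCODE 29 (GRCh38) and promoters from RefSeq.

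Log2(TPM + 1) of the 13722 genes that averaged 1 TPM or more was fitted with limma 3.58.1 in R 4.3.3 (lmFit, eBayes with a mean-variance trend, group as the only term) with Benjamini-Hochberg adjustment. The paper states a two-tailed Student's test for the study and none for the transcriptome. Shares were compared by exact permutation (scipy 1.17.1). The fit was tested on simulated data. The Notch genes, the pathway, marker and motif lists and the tests were chosen with earlier results of these data known, so no list is independent evidence. Named genes were the 10 members, the rest of the receptor, ligand, HES and HEY families, and in each role of the pathway list up to 2 rises and 2 falls, the largest among called genes. Some genes that this rule names are not reported here. Others named (such as RBPJ, MIB1, ADAM10 and FURIN) complete a count or were picked after values were seen. Alternatives varied the pseudocount, the limit on low values, scaling, trend, replicate block, thresholds and each library left out. Summing NOTCH2 with its copies was added after the data were seen.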

Additional observations from a re-analysis of the deposited data

How the results depend on the processing

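The depth behind TPM is unknown, and JAG2, DLL4, HES4 and HEY2 lie near the rounding step or below the limit for testing, so their differences have little precision. With all libraries, 4 of the Notch genes had an unadjusted p under 0.05, as did 6335 of all 13722 tested genes. Limma called 3 of the Notch genes (2 lower, 1 higher). The number was 1 (NOTCH2) with a limit of 5 TPM, under which only NOTCH2 was tested, with the replicate block and with an adjusted p under 0.01, 0 when a change of 1 log2 unit was required, and 2 (NOTCH1 and NOTCH2) in each fit without 1 library. At an adjusted p under 0.05, NOTCH2 was lower and called in 16 of 16 refits with other settings or libraries, and NOTCH1 in 14 of 15, while NOTCH1 missed the threshold of 0.01 and neither changed by 1 log2 unit. Same-numbered libraries did not deviate together (correlations of -0.0198 to 0.0341 over 3 pairs), so the numbers were not taken as pairs, and with the replicate block the adjusted p of NOTCH1 was 0.0508 and that of HES1 0.102. The log2 fold change of NOTCH3 turned to -0.021 without NC replicate 1 and -0.0761 without KD replicate 2, and ranged up to 0.143 with a library left out, never past the threshold.

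Of the other pathway genes, 23 were called, 14 with the replicate block, 8 with an adjusted p under 0.01, 0 when a change of 1 log2 unit was required, and 13 to 15 with 1 library left out. Over all tested genes 4955 were called, 2839 with an adjusted p under 0.01, 256 when a change of 1 log2 unit was required, and 3850 to 4210 with 1 library left out. Lower genes made up 66.5% of the calls, and 49.6% with median-of-ratios scaling or 50.0% with quantile normalization. The difference in the share of JAG1 was 1.68 percentage points with DLL1 and DLL3 added. With 1 library left out, the differences in share ranged from -1.23 to -0.952 points for NOTCH1, 0.158 to 0.862 for NOTCH2, 0.189 to 0.869 for NOTCH3, -2.59 to -1.71 for JAG1, 1.78 to 2.33 for JAG2 and -0.0643 to 0.371 for DLL4.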

Other observations

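MFNG, the remaining Fringe enzyme, averaged below 1 TPM and was singled out after its values were seen. It was 0.14, 0.18 and 0.06 TPM in NC and 0.51, 0.83 and 1.05 TPM in KD, with no overlap between the groups, and in the fit without a limit on low values its limma adjusted p was 0.0224. In that fit LFNG did not pass (limma adjusted p = 0.057). The values of LFNG and MFNG both lay higher in the KD libraries with no overlap. RFNG was between 12.56 and 15.22 TPM in NC and between 14.01 and 16.40 TPM in KD, with overlap.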
